A study of Mus musculus with 9 samples.

Results

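The genes described here are 10 genes of the blood-brain barrier: the transporter genes Slco1a4, Slco1c1, Abcb1a, Abcg2, Slc2a1, Slc7a5 and Mfsd2a, the tight junction gene Cldn5, and the endothelial receptor genes Flt1 and Kdr. They were chosen by symbol, with earlier results of these data known. Each was found once in a count table of 56748 genes, and all 10 were among the 17575 genes tested. Because of that choice, shares of all tested genes set beside the 10 genes below are a description and not a test. RNA from whole brain without the cerebellum was sequenced from mice aged 7 months, with 3 libraries for each of 3 genotypes. 5xFAD/Cd5l tg/wt mice carried the 5xFAD alleles together with a transgene for mouse CD5L, a secreted scavenger receptor protein, driven by the human PDGF-B promoter. 5xFAD mice, a transgenic model of amyloid deposition, carried no such transgene, and wild-type mice were the reference for both. The labels name each library as 1 mouse and give neither sex nor strain. The samples were whole tissue, so fewer endothelial cells and less RNA per endothelial cell cannot be told apart in any value below.

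Endothelial cells of brain capillaries are sealed to each other by tight junctions, so most solutes reach the brain only through transporters in the endothelial membrane. Uptake carriers bring in glucose, amino acids, lipids and hormones, and ATP-driven pumps return many drugs and metabolites to the blood. Receptors for vascular endothelial growth factor (VEGF) regulate growth, survival and permeability of the same cells, and Wnt/beta-catenin signalling is known to maintain their barrier state. Some of these genes are not limited to endothelium: Slc2a1 and Slco1c1 are also transcribed in other brain cells, including astrocytes.

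The windows around the transcription start of 4 of the genes are shown because the results below turn on them: Slco1a4, Abcb1a and Flt1 passed the test in 5xFAD against wild-type mice and again when 5xFAD/Cd5l tg/wt were set against 5xFAD mice, and Mfsd2a passed in neither. Each window holds 250 bases before and 50 bases after a start, 5′ to 3′ on the gene's strand. The sequences are from RefSeq on GRCm38.p6, which held windows for 9 of the 10 genes (Slc7a5 is named only). Capitals mark 6 motifs searched on both strands: AGGAAG (the core bound by ETS factors), CTTTGA (a core bound by TCF/LEF factors of the Wnt pathway), CTTTGT (a second TCF/LEF core, with the same first 5 letters), GGGCGG (the GC box), TATAAA (the core promoter TATA box) and ACGTG (core of the hypoxia response element).
Slco1a4 (chr6:141856171-141856470, minus strand): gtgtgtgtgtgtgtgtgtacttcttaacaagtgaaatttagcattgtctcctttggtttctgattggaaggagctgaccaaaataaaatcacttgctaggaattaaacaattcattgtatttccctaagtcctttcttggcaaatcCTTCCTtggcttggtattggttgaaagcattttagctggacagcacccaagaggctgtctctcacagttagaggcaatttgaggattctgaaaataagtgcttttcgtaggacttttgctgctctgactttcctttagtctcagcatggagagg
Abcb1a (chr5:8566841-8567140, plus strand): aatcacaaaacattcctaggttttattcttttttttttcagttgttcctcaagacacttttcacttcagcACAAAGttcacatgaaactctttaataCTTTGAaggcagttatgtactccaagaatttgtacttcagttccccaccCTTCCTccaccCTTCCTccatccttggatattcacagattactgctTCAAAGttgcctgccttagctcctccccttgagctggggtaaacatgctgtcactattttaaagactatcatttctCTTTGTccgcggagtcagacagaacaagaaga
Flt1 (chr5:147725962-147726261, minus strand): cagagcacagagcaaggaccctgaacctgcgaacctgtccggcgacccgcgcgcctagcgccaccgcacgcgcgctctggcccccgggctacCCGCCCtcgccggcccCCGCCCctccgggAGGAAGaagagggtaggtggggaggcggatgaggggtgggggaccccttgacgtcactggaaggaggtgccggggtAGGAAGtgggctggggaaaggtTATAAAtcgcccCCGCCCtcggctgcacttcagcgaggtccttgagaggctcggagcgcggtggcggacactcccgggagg
Mfsd2a (chr4:122961139-122961438, minus strand): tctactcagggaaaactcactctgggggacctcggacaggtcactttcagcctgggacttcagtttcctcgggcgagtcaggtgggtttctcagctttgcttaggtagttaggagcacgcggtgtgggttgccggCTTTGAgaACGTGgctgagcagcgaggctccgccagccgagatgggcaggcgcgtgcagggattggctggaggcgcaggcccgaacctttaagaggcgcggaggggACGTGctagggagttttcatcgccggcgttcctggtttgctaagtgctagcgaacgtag

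In the windows shown, AGGAAG had 1 match in Slco1a4, 2 in Abcb1a, 2 in Flt1 and none in Mfsd2a. Over the 9 matched genes AGGAAG was present in 5 (Slco1a4, Slco1c1, Abcb1a, Abcg2 and Flt1), and 35.4% of all 32851 windows in the RefSeq table held it. GGGCGG was present in 5 of the 9 (Abcg2, Slc2a1, Cldn5, Flt1 and Kdr), against 35.7% of all windows. TATAAA was present in 4 of the 9 (13.6% of all windows) and ACGTG in 3 (19.6%). Of the TCF/LEF cores, CTTTGA was present in Abcb1a and Mfsd2a (16% of all windows) and CTTTGT in Slco1c1 and Abcb1a (18.7%). Abcg2 had 3 windows and was counted for a motif if any of them held it. A match is only a description of the letters in the window.

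The libraries held 14575416 to 17865150 counts. Cd5l, the transgene's gene, was counted 2553, 2822 and 3551 times in libraries 1 to 3 of 5xFAD/Cd5l tg/wt mice, 0 times in every 5xFAD library, and 0, 1 and 0 times in wild-type libraries. The neuronal marker Snap25 lay between 2103 and 2627 CPM (counts scaled to a common library size of 1000000) in every library. In 3 libraries regional markers stood apart (Pmch, Hcrt and the cerebellar granule cell gene Gabra6 were picked for naming after their values were seen). Pmch, the hypothalamic gene for melanin-concentrating hormone, was at 0.135 and 0.169 CPM in 5xFAD/Cd5l tg/wt libraries 2 and 3, against 23.6 to 38.9 CPM in the other 7 libraries. Hcrt, the hypothalamic orexin gene, had 0 counts in those 2 libraries and 61 to 209 in the other 7. Wild-type library 3 had 192 CPM of the granule cell gene Cbln3 and 94.2 CPM of Gabra6, although the tissue was labelled as lacking cerebellum, and the other 8 libraries had at most 18.5 and 4.88 CPM. These 3 are called the divergent libraries below, and many of the values are given with and without them. The haemoglobin genes Hbb-bs and Hba-a1 were at 12.1 and 8.43 CPM in 5xFAD library 3 and at 6.88 and 5.25 CPM in 5xFAD/Cd5l tg/wt library 3, against at most 1.59 CPM in the other 7 libraries, and the part of blood in the results was not tested. Removing all 3 divergent libraries leaves 5xFAD/Cd5l tg/wt library 1 alone in its genotype, where it is assumed to vary like the others.

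Per kilobase of exon, the 10 genes covered a wide range of levels in wild-type brain. Slc2a1 was highest at 30.1 ± 0.777 CPM per kb (mean ± SD, n = 3 here and for every mean below), followed by Slc7a5 at 19.8 ± 0.701, Cldn5 at 14.1 ± 1.39 and Slco1c1 at 9.83 ± 1.04. Mfsd2a (7.87 ± 1.70), Slco1a4 (7.49 ± 0.952) and Abcb1a (6.43 ± 0.194) came next, then Flt1 (4.801 ± 0.149), Abcg2 (2.34 ± 0.203) and Kdr (1.42 ± 0.0839 CPM per kb). Within this order Slco1c1 and Mfsd2a, Mfsd2a and Slco1a4, and Slco1a4 and Abcb1a were neighbours that did not differ beyond 1 SD on each side, and all other neighbours did. In 5xFAD brain Slco1a4 stood at 3.45 ± 0.887 CPM per kb, beside Abcb1a at 3.55 ± 0.223 and Flt1 at 3.25 ± 0.376, while Mfsd2a stood at 9.03 ± 2.68. The level of Slco1a4 in 5xFAD/Cd5l tg/wt brain was 8.08 ± 0.519 CPM per kb and that of Mfsd2a 6.39 ± 1.16. The 3 highest genes were Slc2a1, Slc7a5 and Cldn5 in each genotype.

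Between 5xFAD and wild-type mice the comparison addresses the amyloid model alone. Slco1a4, Abcb1a and Flt1 fell, 7 genes did not pass, and none rose. Thus 3 of the 10 genes were called lower, beside 2.44% of all tested genes. For 8 of the 10 (all but Mfsd2a and Cldn5) every 5xFAD library lay below every wild-type library, which held for 13.9% of all tested genes. The median log2 fold change of the 10 genes was -0.39, and that of all tested genes was -0.01.

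The Cd5l transgene on the amyloid background is addressed by setting 5xFAD/Cd5l tg/wt beside 5xFAD mice. Slco1a4, Abcb1a, Flt1, Abcg2, Cldn5 and Kdr rose, 4 genes did not pass, and none fell. These 6 of 10 stand beside 5.34% of all tested genes called higher. For 7 of the 10 (the 6 that rose and Slc7a5) every 5xFAD/Cd5l tg/wt library lay above every 5xFAD library, which held for 16.6% of all tested genes. The median log2 fold change was 0.62 for the 10 genes and 0.01 for all tested genes. This comparison and the preceding one share the 3 5xFAD libraries, so low values in those libraries enter both.

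Against wild-type mice, 5xFAD/Cd5l tg/wt mice had no gene of the 10 past the threshold in edgeR's quasi-likelihood test, where 1.58% of all tested genes passed. DESeq2 and limma-voom also called 0 of the 10, and 1 gene (Cldn5) had an unadjusted p under 0.05. Every 5xFAD/Cd5l tg/wt library lay above every wild-type library for 2 of the 10 (Abcb1a and Cldn5), which held for 7.93% of all tested genes. The median log2 fold change was 0.11. The plot of fold changes shows these 3 comparisons side by side.

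**Figure D1:**
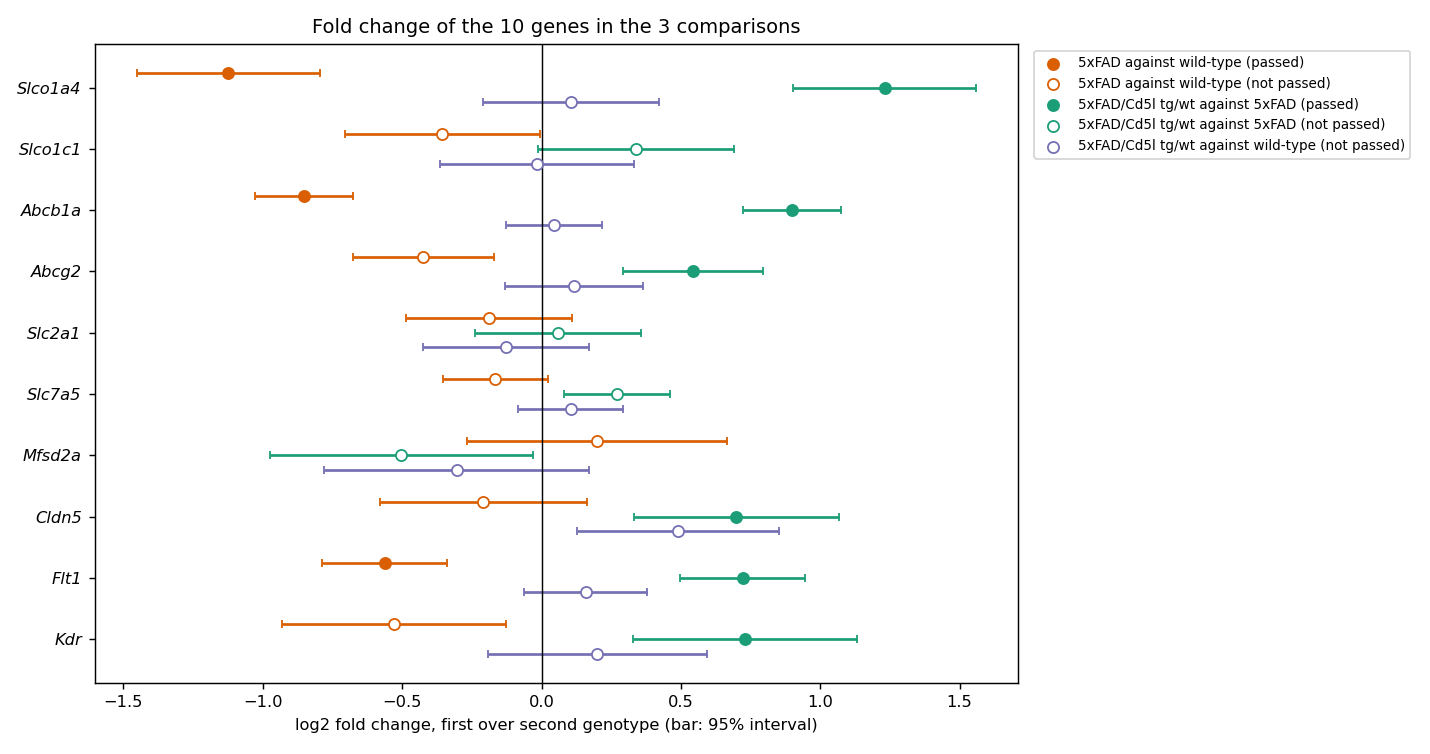
Log2 fold change of each gene (horizontal axis) in the 3 comparisons, with its 95% interval from the edgeR fit; filled points passed at an adjusted p under 0.05. Slco1a4, Abcb1a and Flt1 have filled points on both sides of 0, and every interval of 5xFAD/Cd5l tg/wt against wild-type other than that of Cldn5 includes 0.

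Among the organic anion transporters, Slco1a4 (chromosome 6, 141751166 to 141801925 on GRCm39, minus strand) encodes OATP1A4, which carries bile salts, steroid conjugates and other organic anions across the barrier. Slco1a4 had 48.7, 55.3 and 51.5 CPM in 5xFAD/Cd5l tg/wt libraries 1 to 3, 19.5, 18.2 and 28.6 CPM in 5xFAD libraries, and 50.3, 52.7 and 41.1 CPM in wild-type libraries. The 5xFAD values lay below all others, without overlap, and the other genotypes overlapped. Its log2 fold change was -1.12 ± 0.15 (SE) in 5xFAD against wild-type (edgeR adjusted p = 0.00135) and 1.23 ± 0.15 in 5xFAD/Cd5l tg/wt against 5xFAD (edgeR adjusted p = 0.000802). Set against wild-type, 5xFAD/Cd5l tg/wt mice had a value of 0.11, with a 95% interval of -0.21 to 0.42. Leaving out the divergent libraries, the first 2 values were -1.21 and 1.13, and both passed. Of its neighbouring paralogs, Slco1a1 and Slco1a6 had 0 counts in every library and Slco1a5 at most 13; how reads matching several paralogs were counted is not known here.

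Slco1c1 (chromosome 6, 141470094 to 141515903, plus strand) encodes OATP1C1, the carrier of the thyroid hormone thyroxine. Slco1c1 had 35.0, 59.5 and 56.6 CPM in 5xFAD/Cd5l tg/wt libraries, 40.5, 42.1 and 36.9 CPM in 5xFAD libraries, and 45.2, 55.8 and 52.1 CPM in wild-type libraries. All 5xFAD libraries were below wild-type, and 5xFAD/Cd5l tg/wt library 1 was the lowest of all 9 while libraries 2 and 3 were the highest. Neither 5xFAD against wild-type (-0.36 ± 0.16, edgeR adjusted p = 0.298) nor 5xFAD/Cd5l tg/wt against 5xFAD (0.34 ± 0.16, edgeR adjusted p = 0.239) passed. The result depended on 5xFAD/Cd5l tg/wt library 1: without it the 2 comparisons gave -0.35 and 0.54 and passed (edgeR adjusted p = 0.0399 and 0.00401). With the divergent libraries removed the sign of the second turned (-0.21, edgeR adjusted p = 0.402), and the value of 5xFAD/Cd5l tg/wt against wild-type was -0.53 (edgeR adjusted p = 0.0724) in place of -0.02. Library 1 is the 5xFAD/Cd5l tg/wt library that kept Pmch and Hcrt, and its choroid plexus gene Ttr was at 282 CPM, against 459 and 742 CPM in libraries 2 and 3. The part of these library differences in the Slco1c1 result was not tested.

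Of the efflux pumps, Abcb1a (chromosome 5, 8710077 to 8798575, plus strand) encodes P-glycoprotein, the main drug efflux pump of the barrier. Abcb1a had 36.7, 36.2 and 36.1 CPM in 5xFAD/Cd5l tg/wt libraries, 18.3, 20.8 and 19.3 CPM in 5xFAD libraries, and 34.0, 35.9 and 35.7 CPM in wild-type libraries. The 5xFAD libraries were the lowest by a wide gap, and the 5xFAD/Cd5l tg/wt libraries lay just above wild-type. The log2 fold change was -0.85 ± 0.08 in 5xFAD against wild-type (edgeR adjusted p = 9.87e-05), 0.90 ± 0.08 in 5xFAD/Cd5l tg/wt against 5xFAD (edgeR adjusted p = 0.000122) and 0.04, with a 95% interval of -0.13 to 0.22, in 5xFAD/Cd5l tg/wt against wild-type. Reads may also be assigned to its neighbouring paralog Abcb1b. That paralog was at 5.46 to 7.96 CPM in 5xFAD/Cd5l tg/wt, 3.77 to 5.02 CPM in 5xFAD and 3.16 to 4.88 CPM in wild-type libraries. Abcb1b did not pass in 5xFAD against wild-type (0.16 ± 0.24, edgeR adjusted p = 0.795), nor in 5xFAD/Cd5l tg/wt against 5xFAD (0.60 ± 0.23, edgeR adjusted p = 0.146).

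Abcg2 (chromosome 6, 58561508 to 58672661, plus strand) encodes BCRP, the other major drug efflux pump of brain capillaries. Abcg2 had 21.0, 21.6 and 19.5 CPM in 5xFAD/Cd5l tg/wt libraries, 12.4, 15.6 and 14.7 CPM in 5xFAD libraries, and 19.7, 20.4 and 17.2 CPM in wild-type libraries. Here too every 5xFAD library was below every other library. The fold change did not pass in 5xFAD against wild-type (-0.42 ± 0.12, edgeR adjusted p = 0.0721) and passed in 5xFAD/Cd5l tg/wt against 5xFAD (0.54 ± 0.12, edgeR adjusted p = 0.0173). The second call was lost without 5xFAD library 1 (0.45, edgeR adjusted p = 0.0985), without 5xFAD/Cd5l tg/wt library 2 (0.51, edgeR adjusted p = 0.0690) and without the divergent libraries (0.55, edgeR adjusted p = 0.0646). Without those 3 libraries Abcg2 passed as lower in 5xFAD than in wild-type mice (-0.48, edgeR adjusted p = 0.0307).

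**Figure D2:**
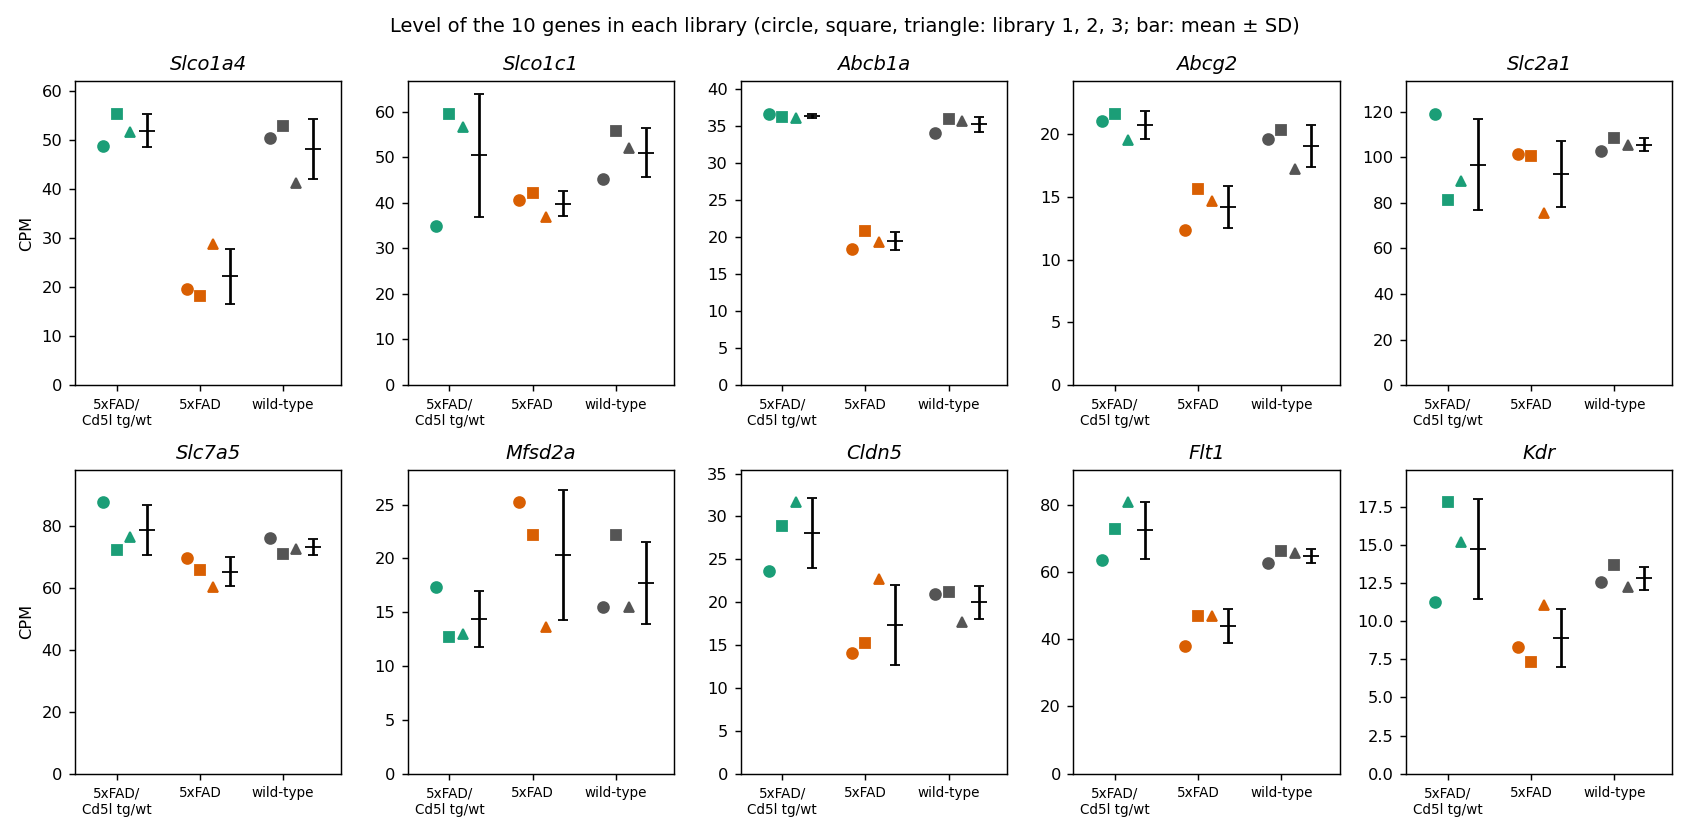
CPM of each gene in each library (vertical axes start at 0), by genotype, with mean ± SD (n = 3). The 5xFAD libraries are lowest for Slco1a4, Abcb1a, Abcg2, Slc7a5, Flt1 and Kdr, and the libraries of the 3 genotypes overlap for Mfsd2a.

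The nutrient and lipid carriers did not pass in any comparison. Slc2a1 (chromosome 4, 118965908 to 118995180, plus strand) encodes the glucose transporter GLUT1. Slc2a1 had 119, 81.2 and 89.7 CPM in 5xFAD/Cd5l tg/wt libraries, 101, 101 and 75.8 CPM in 5xFAD libraries, and 103, 108 and 106 CPM in wild-type libraries. 5xFAD/Cd5l tg/wt libraries 2 and 3 and 5xFAD library 3 were low, and 5xFAD/Cd5l tg/wt library 1 was the highest of all. Its log2 fold change was -0.19 (95% interval -0.49 to 0.11) in 5xFAD against wild-type and 0.06 (-0.24 to 0.36) in 5xFAD/Cd5l tg/wt against 5xFAD. The sign of the second turned without 5xFAD/Cd5l tg/wt library 1 (-0.12) or without 5xFAD library 3 (-0.07), and without the divergent libraries the value was 0.35 (edgeR adjusted p = 0.172).

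Slc7a5 (chromosome 8, 122607889 to 122634433, minus strand) encodes LAT1, the carrier of large neutral amino acids. Slc7a5 had 87.8, 72.4 and 76.4 CPM in 5xFAD/Cd5l tg/wt libraries, 69.8, 65.8 and 60.4 CPM in 5xFAD libraries, and 76.2, 71.1 and 72.7 CPM in wild-type libraries. All 5xFAD libraries were below all others, by small gaps. The log2 fold change was -0.17 ± 0.09 in 5xFAD against wild-type (edgeR adjusted p = 0.384) and 0.27 ± 0.09 in 5xFAD/Cd5l tg/wt against 5xFAD (edgeR adjusted p = 0.0889). With the divergent libraries left out the second was 0.41 and passed (edgeR adjusted p = 0.0418). Slc3a2, the gene of the heavy chain with which LAT1 forms its dimer, had values of 0.01 ± 0.07 and 0.12 ± 0.07 in the same comparisons and did not pass.

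Mfsd2a (chromosome 4, 122840643 to 122854981, minus strand) encodes the carrier of docosahexaenoic acid in lysophospholipid form, which also restrains vesicle transport across the endothelium. Mfsd2a had 17.4, 12.7 and 12.98 CPM in 5xFAD/Cd5l tg/wt libraries, 25.2, 22.2 and 13.6 CPM in 5xFAD libraries, and 15.5, 22.1 and 15.5 CPM in wild-type libraries. It was the only one of the 10 with a positive value in 5xFAD against wild-type (0.20 ± 0.22, edgeR adjusted p = 0.719) and the only one with a negative value in 5xFAD/Cd5l tg/wt against 5xFAD (-0.50 ± 0.22, edgeR adjusted p = 0.197). 5xFAD library 3, which also had the highest levels of the haemoglobin genes, lay apart from the other 5xFAD libraries. Without it the second value was -0.72 and fell just past the threshold (edgeR adjusted p = 0.0499), and with no filter on low counts it was -0.52 and passed (edgeR adjusted p = 0.00499). It was -0.32 without 5xFAD library 1 (edgeR adjusted p = 0.526) and -0.25 without the divergent libraries (edgeR adjusted p = 0.657). Without those 3 libraries the value of 5xFAD against wild-type was 0.13 (edgeR adjusted p = 0.781).

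The junction gene Cldn5 (chromosome 16, 18595597 to 18597012, plus strand) encodes claudin-5, the principal claudin of brain endothelial tight junctions. Cldn5 had 23.6, 28.9 and 31.7 CPM in 5xFAD/Cd5l tg/wt libraries, 14.0, 15.3 and 22.7 CPM in 5xFAD libraries, and 21.0, 21.2 and 17.7 CPM in wild-type libraries. The 5xFAD and wild-type libraries overlapped, because 5xFAD library 3 was above all 3 wild-type libraries, and every 5xFAD/Cd5l tg/wt library was above all 6 others. The fold change was -0.21 ± 0.17 in 5xFAD against wild-type (edgeR adjusted p = 0.618) and 0.70 ± 0.17 in 5xFAD/Cd5l tg/wt against 5xFAD (edgeR adjusted p = 0.0311). The second did not pass without 5xFAD library 1 (0.57, edgeR adjusted p = 0.150) or 2 (0.61, 0.160), without library 2 (0.68, 0.0959) or 3 (0.60, 0.121) of 5xFAD/Cd5l tg/wt mice, or without the divergent libraries (0.44, 0.247). In 5xFAD/Cd5l tg/wt against wild-type Cldn5 had the largest value of the 10, 0.49 (95% interval 0.13 to 0.85, unadjusted p = 0.0124), which did not pass (edgeR adjusted p = 0.229). That value was 0.16 without the divergent libraries (edgeR adjusted p = 0.796).

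The VEGF receptor genes had values of the same sign. Flt1 (chromosome 5, 147498414 to 147662821, minus strand) encodes VEGFR1, which binds VEGF tightly and limits its action on VEGFR2. Flt1 had 63.7, 72.7 and 80.7 CPM in 5xFAD/Cd5l tg/wt libraries, 37.99, 46.8 and 46.8 CPM in 5xFAD libraries, and 62.6, 66.4 and 65.5 CPM in wild-type libraries. The 5xFAD libraries were lowest without overlap. The log2 fold change was -0.56 ± 0.10 in 5xFAD against wild-type (edgeR adjusted p = 0.0107) and 0.72 ± 0.10 in 5xFAD/Cd5l tg/wt against 5xFAD (edgeR adjusted p = 0.00183). The first did not pass without wild-type library 2 (-0.53, edgeR adjusted p = 0.0511) or without 5xFAD library 1 (-0.47, edgeR adjusted p = 0.0612). The values without the divergent libraries were -0.54 and 0.52, and both passed.

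Kdr (chromosome 5, 76093487 to 76139118, minus strand) encodes VEGFR2, the main signalling receptor for VEGF. Kdr had 11.3, 17.8 and 15.2 CPM in 5xFAD/Cd5l tg/wt libraries, 8.34, 7.35 and 11.04 CPM in 5xFAD libraries, and 12.6, 13.7 and 12.2 CPM in wild-type libraries. Every 5xFAD library was below every other library, although 5xFAD/Cd5l tg/wt library 1 exceeded 5xFAD library 3 only narrowly. The fold change was -0.53 ± 0.19 in 5xFAD against wild-type (edgeR adjusted p = 0.166) and 0.73 ± 0.18 in 5xFAD/Cd5l tg/wt against 5xFAD (edgeR adjusted p = 0.0361). The second call was the least stable of the 6. It was lost without wild-type library 1 (0.73, edgeR adjusted p = 0.0527) or 2 (0.71, 0.0551), without 5xFAD library 1 (0.68, 0.152) or 2 (0.60, 0.179), and without library 2 (0.57, 0.145) or 3 (0.71, 0.109) of 5xFAD/Cd5l tg/wt mice. It was also lost when only the 6 libraries compared were fitted (0.73, 0.0605) or with offsets for gene length (0.66, 0.0528). Without the divergent libraries the value was 0.33 (0.421).

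Beside the 10 genes stand general markers of endothelium. The summed level of 19 pan-endothelial markers that exclude the 10 genes was 338 to 386 CPM in 5xFAD/Cd5l tg/wt, 247 to 259 CPM in 5xFAD and 300 to 357 CPM in wild-type libraries. All 19 had negative values in 5xFAD against wild-type, of which 5 fell, with a median of -0.34. In 5xFAD/Cd5l tg/wt against 5xFAD all 19 were positive and 7 rose, with a median of 0.47. Of all tested genes, 2.44% were called lower in 5xFAD against wild-type and 5.34% higher in 5xFAD/Cd5l tg/wt against 5xFAD. These shares also stand beside the lists below. Without 1 library the 5 varied between 1 (without wild-type library 1 or 2, or 5xFAD library 1 or 2) and 5, with 2 without 5xFAD library 3 and 3 without 5xFAD/Cd5l tg/wt library 3. The 7 varied between 1 (without 5xFAD library 1) and 12 (without 5xFAD/Cd5l tg/wt library 1), with 2 when 5xFAD library 2 or library 2 or 3 of 5xFAD/Cd5l tg/wt mice was left out, and 4 without wild-type library 1 or 5xFAD library 3. Without the divergent libraries 8 fell and 3 rose.

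To describe unequal change within a library, the CPM of each gene was divided by the summed CPM of these 19 markers, as a log2 ratio with no test. Slco1a4 had ratios of -2.80, -2.67 and -2.91 in 5xFAD/Cd5l tg/wt, -3.66, -3.77 and -3.18 in 5xFAD and -2.73, -2.76 and -2.87 in wild-type libraries, so it was lower in 5xFAD relative to the other endothelial genes as well, by 0.75 against wild-type. Abcb1a had ratios of -3.20, -3.29 and -3.42 in 5xFAD/Cd5l tg/wt, -3.76, -3.58 and -3.75 in 5xFAD and -3.29, -3.31 and -3.07 in wild-type libraries. For both genes the 5xFAD libraries lay below all others. The other 8 overlapped between 5xFAD and wild-type libraries on this ratio, Flt1, Abcg2 and Kdr included. Mfsd2a was the only one of these genes whose ratio was lower in every 5xFAD/Cd5l tg/wt than in every 5xFAD library. Its means were -4.66 ± 0.329 and -3.68 ± 0.509 (SD, n = 3 each). On CPM alone Mfsd2a overlapped between these genotypes. The marker sum that divides it was higher in 5xFAD/Cd5l tg/wt (338 to 386 CPM) than in 5xFAD libraries (247 to 259 CPM), which lowers the ratio. The share of all tested genes with such orders on this ratio was not counted, so these orders have no background beside them.

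**Figure D3:**
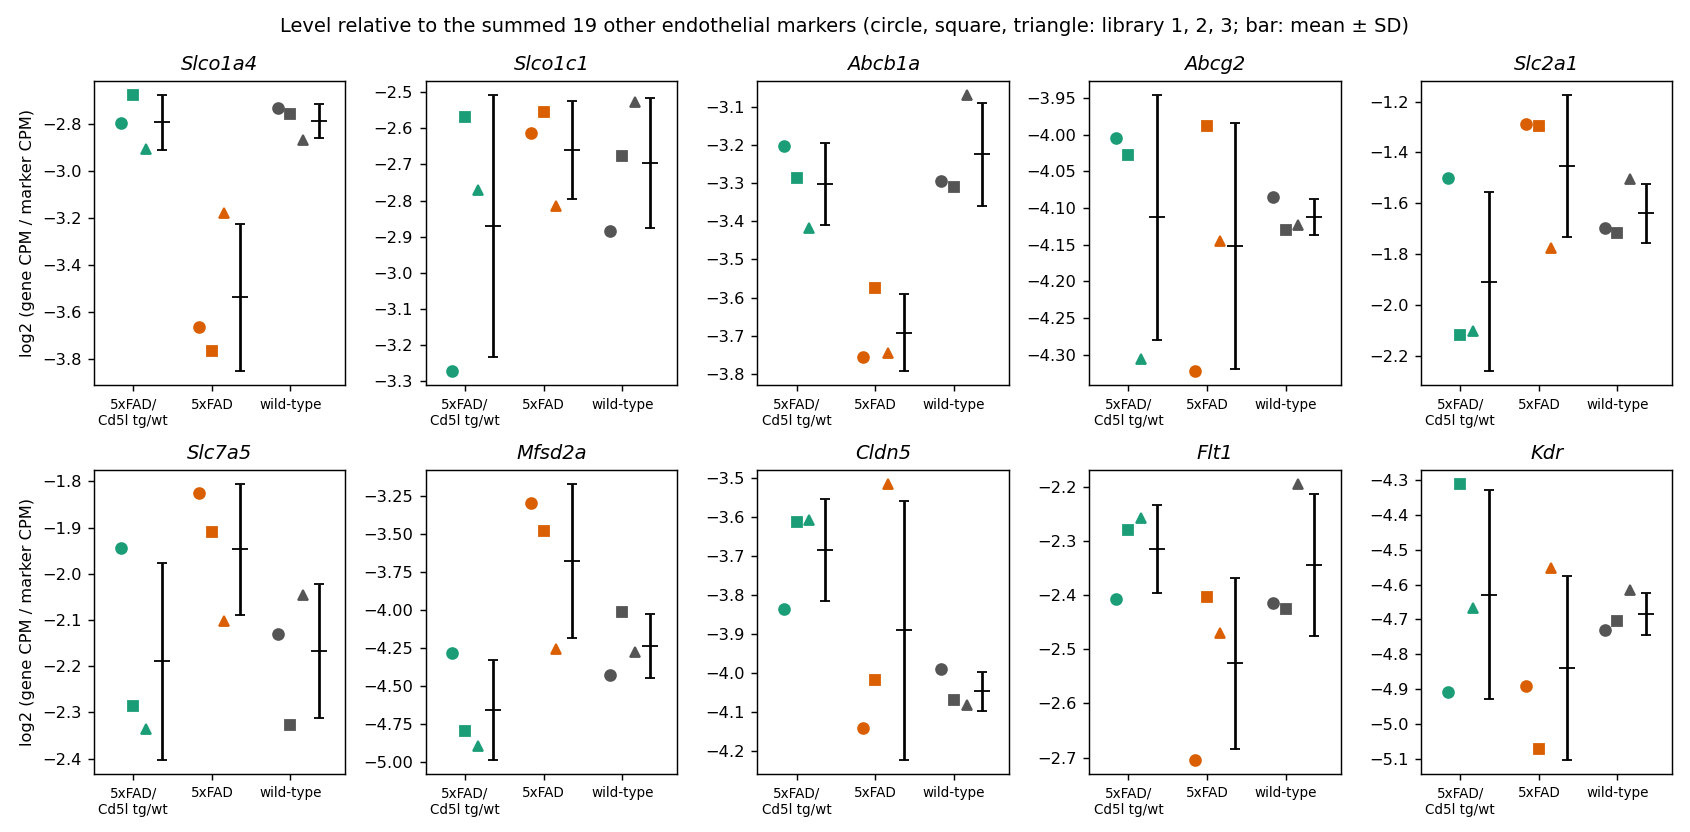
Log2 ratio of each gene's CPM to the summed CPM of 19 other endothelial markers, by library and genotype, with mean ± SD (n = 3). The 5xFAD libraries lie below both other genotypes for Slco1a4 and Abcb1a and overlap with wild-type for the other 8.

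Of 22 further transporters and receptors of the barrier, 4 fell in 5xFAD against wild-type and none rose, with a median log2 fold change of -0.18. The samples were whole tissue, so the cells from which these RNAs came cannot be told. Insr, the insulin receptor gene, fell by 0.33 ± 0.07, Slc6a6, the taurine transporter gene, by 0.42 ± 0.09, the efflux pump gene Abcc5 by 0.43 ± 0.11 and its relative Abcc6 by 1.65 ± 0.41 (edgeR adjusted p = 0.0224, 0.0283, 0.0456 and 0.0483). Of the same 22, 6 rose and none fell in 5xFAD/Cd5l tg/wt against 5xFAD, with a median of 0.26. Abcc5 (0.59 ± 0.11), Slc6a6 (0.50 ± 0.09), Tfrc, the transferrin receptor gene (0.51 ± 0.10), and Insr (0.28 ± 0.07) had the smallest p (edgeR adjusted p = 0.00735, 0.00908, 0.0121 and 0.0342). Both counts rested on single libraries: 0 passed in 5xFAD against wild-type without any 1 of the 3 5xFAD libraries or without wild-type library 1 or 2. In the second comparison 0 passed without 5xFAD library 2, 1 without 5xFAD library 1, and 3 when wild-type library 2 or library 3 of 5xFAD/Cd5l tg/wt mice was left out. Without the divergent libraries 5 and 4 of the 22 passed. Slco2b1, another organic anion transporter gene, rose by 0.95 ± 0.12 in 5xFAD/Cd5l tg/wt against wild-type (edgeR adjusted p = 0.00118), and the other 21 did not pass. Microglia also express Slco2b1, and 11 of 12 microglia markers rose in the same comparison, with a median of 1.28; their part in this value was not tested.

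Of 15 other endothelial junction genes, none passed in 5xFAD against wild-type in edgeR's test, and the median was -0.15. Ocln, the gene of occludin, had -0.44 ± 0.17 (edgeR adjusted p = 0.222) and Pecam1, an adhesion molecule gene, -0.33 ± 0.12 (edgeR adjusted p = 0.168). 1 gene was called higher in 5xFAD/Cd5l tg/wt than in 5xFAD mice, Pecam1 (0.50 ± 0.12, edgeR adjusted p = 0.0271). Cdh5, the VE-cadherin gene, had 0.47 ± 0.14 (edgeR adjusted p = 0.0689), and the median was 0.20. Pecam1 and Cdh5 are also among the pan-endothelial markers described above. No junction gene passed in the second comparison without any 1 of the 5xFAD libraries, without library 2 or 3 of 5xFAD/Cd5l tg/wt mice or without the divergent libraries, and 3 passed without 5xFAD/Cd5l tg/wt library 1.

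Of 20 genes of VEGF, angiopoietin, Notch and apelin signalling other than Flt1 and Kdr, 2 fell in 5xFAD against wild-type. They were Ptprb, the gene of the endothelial phosphatase VE-PTP (-0.77 ± 0.10, edgeR adjusted p = 0.00121), and the receptor gene Tie1 (-0.72 ± 0.16, edgeR adjusted p = 0.0316). Both are also among the pan-endothelial markers described above. Vegfa, the ligand gene, had -0.37 ± 0.14 (edgeR adjusted p = 0.186). In 5xFAD/Cd5l tg/wt against 5xFAD 6 rose and 1 fell. Ptprb (0.85 ± 0.10), Tie1 (0.87 ± 0.16) and Robo4, an endothelial guidance receptor gene (0.91 ± 0.20), rose, and Apln, the gene of the peptide apelin, fell by 0.58 ± 0.12 (edgeR adjusted p = 0.000642, 0.00931, 0.0194 and 0.0161). These 7 calls became 1 without 5xFAD library 1 or 2, 2 without 5xFAD/Cd5l tg/wt library 2, 3 without 5xFAD/Cd5l tg/wt library 3, and 3 without the divergent libraries. The 2 calls of the first comparison became 1 without wild-type library 1 or 2 or 5xFAD library 1 or 2, 3 without library 3 of wild-type or of 5xFAD mice or library 2 of 5xFAD/Cd5l tg/wt mice, 4 without library 1 of 5xFAD/Cd5l tg/wt mice, and 7 without the divergent libraries. Apln also fell in 5xFAD/Cd5l tg/wt relative to wild-type mice (-0.56 ± 0.12, edgeR adjusted p = 0.0431), and the other 19 did not pass there. That call was lost without wild-type library 2 or 3, without any 1 of the 5xFAD libraries, without library 1 or 2 of 5xFAD/Cd5l tg/wt mice, and when only the 6 libraries compared were fitted. With the replicate number as a block 0 also passed, and without the divergent libraries 2 fell.

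Of 20 genes of barrier Wnt signalling, none passed in 5xFAD against wild-type in edgeR's test, with a median of -0.28. The smallest p belonged to Reck, the gene of a Wnt7 co-receptor (-0.61 ± 0.16, edgeR adjusted p = 0.0562). Reck (0.85 ± 0.16, edgeR adjusted p = 0.00798) and Sox17, an endothelial transcription factor gene (0.89 ± 0.23, edgeR adjusted p = 0.0377), rose in the presence of the transgene, and the median of the list was 0.07 in 5xFAD/Cd5l tg/wt against 5xFAD. These 2 calls became 0 without 5xFAD library 1, 1 without wild-type library 1, 5xFAD library 2 or library 3 of 5xFAD/Cd5l tg/wt mice, and 3 without the divergent libraries. In 5xFAD against wild-type 1 gene passed without library 3 of wild-type or of 5xFAD mice or library 1 of 5xFAD/Cd5l tg/wt mice, and 3 passed without the divergent libraries.

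**Figure D4:**
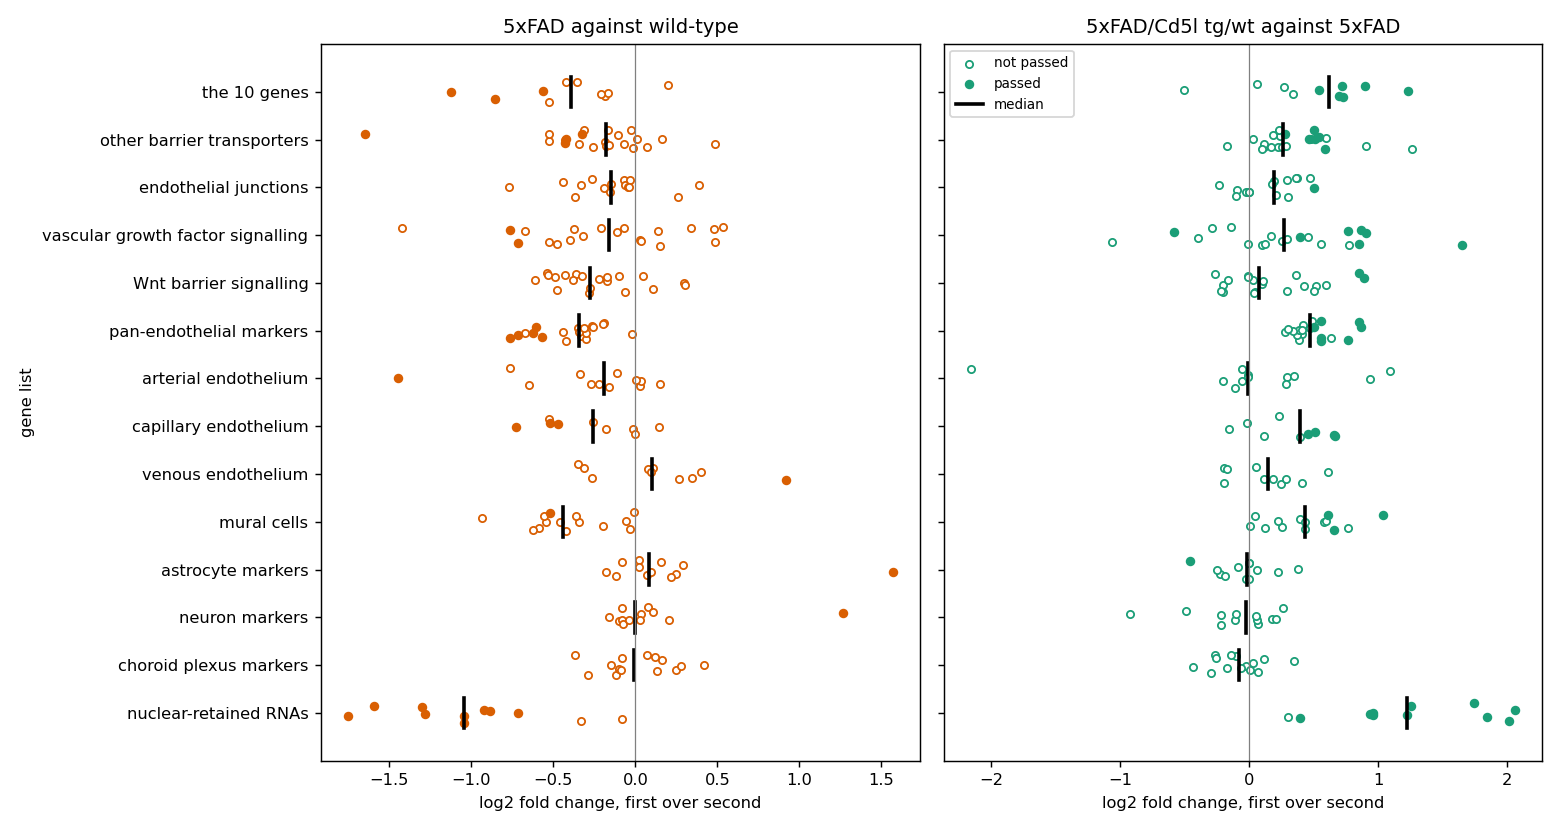
Log2 fold change of each tested gene of 14 lists (horizontal axis) in 5xFAD against wild-type (left) and 5xFAD/Cd5l tg/wt against 5xFAD (right); filled points passed at an adjusted p under 0.05 and bars are medians. The medians are -0.34 and 0.47 for the pan-endothelial markers, shown without Cldn5, Flt1 and Kdr, and -1.05 and 1.23 for the nuclear-retained RNAs.

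RNAs that are retained in the nucleus were lower in 5xFAD libraries than in those of the other genotypes. Of 11 such RNAs 9 fell in 5xFAD against wild-type, 10 passed as higher in 5xFAD/Cd5l tg/wt against 5xFAD, and their summed level was 4544 to 6555 CPM in 5xFAD/Cd5l tg/wt, 1982 to 2381 CPM in 5xFAD and 4273 to 5432 CPM in wild-type libraries. Malat1 was at 291, 557 and 534 CPM in 5xFAD/Cd5l tg/wt libraries, 103, 106 and 122 CPM in 5xFAD libraries, and 358, 421 and 334 CPM in wild-type libraries. Their part in the results for the 10 genes was not tested. Among lists of other cell types, the medians in the same comparisons were -0.00 and -0.02 for neuron, 0.08 and -0.02 for astrocyte, -0.11 and -0.17 for oligodendrocyte and -0.01 and -0.08 for choroid plexus markers. Those of 12 cerebellum and hindbrain markers were -1.81 and -0.90, and those of the 2 blood cell markers tested were 2.52 and -0.61. In both lists single libraries stood apart. The summed cerebellum and hindbrain level was 883, 784 and 2092 CPM in wild-type libraries 1 to 3 and 777 to 854 CPM in 5xFAD libraries. The summed blood cell level was 3.18, 1.57 and 22.2 CPM in 5xFAD libraries 1 to 3 and 0.973 to 2.97 CPM in wild-type libraries. Of 12 microglia markers, 12 rose in 5xFAD against wild-type and none passed in 5xFAD/Cd5l tg/wt against 5xFAD in edgeR's test.

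The genes differ in span from 1.42 kb for Cldn5, whose span in the table is wholly exonic, to 164 kb for Flt1. Across the 10 genes, the longer ones had the more negative values in 5xFAD against wild-type (Spearman rho of -0.76 over 10 genes, which share the same libraries and are not independent). The rho was 0.53 for the values of 5xFAD/Cd5l tg/wt against 5xFAD. Over all 17575 tested genes the same rho was -0.03 and 0.05. With exon length in place of span, the rho over the 10 genes was -0.73 and 0.60. With offsets that removed each library's trend on gene span, an alternative chosen after seeing the data, the same number of genes passed: 3 fell in the first comparison and 6 rose in the second. These offsets follow the trend over all tested genes, not a relation held by the 10 genes alone. The part of span or length in the values of the 10 genes was not tested.

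**Figure D5:**
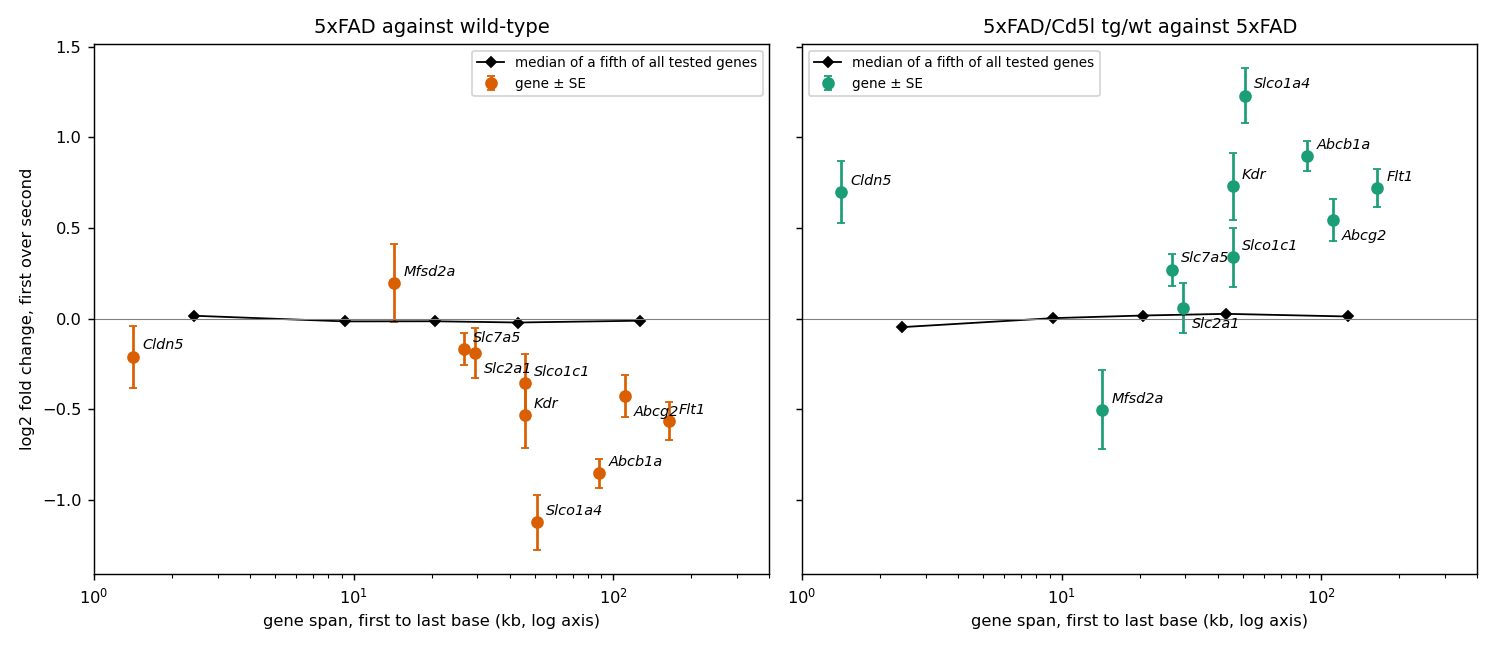
Log2 fold change ± SE of each gene against the span from its first to its last base in kb (log axis), with the median of all tested genes in 5 equal classes of span. Slco1a4, Abcb1a and Flt1 span 50.8, 88.5 and 164 kb, Mfsd2a 14.3 kb and Cldn5 1.42 kb, while the medians of all tested genes stay between -0.05 and 0.03.

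Genes were ranked by the Pearson r, over the 9 libraries, between their log2 CPM and the mean of the 10 genes' standardised log2 CPM. This mean did not follow all 10 genes alike. Each of the 10 is part of the mean, which raises its own r, and the candidates ranked below are not part of it. The r of the mean was 0.980 with Abcb1a, 0.931 with Flt1 and with Slco1a4, and 0.929 with Abcg2. It was lower with Kdr (0.796), Slc7a5 (0.733), Cldn5 (0.667), Slco1c1 (0.609) and Slc2a1 (0.294), and negative with Mfsd2a (-0.374). Among 15890 candidates the highest was Adgrf5, an adhesion receptor gene (r = 0.990). It was followed by Rnpc3, the gene of an RNA-binding protein (0.990), Krba1, a KRAB-A domain gene (0.986), and Ankrd16, an ankyrin repeat gene (0.985). The predicted gene Gm43300 (0.984) and Cnot10, the gene of a CCR4-NOT complex subunit (0.979), came next. Adgrf5 averaged 41.0 CPM in 5xFAD/Cd5l tg/wt, 23.4 CPM in 5xFAD and 39.3 CPM in wild-type libraries. In the same order, Rnpc3 averaged 28.67, 11.46 and 24.92 CPM and Ankrd16 29.16, 11.38 and 24.51 CPM. Krba1 averaged 52.95, 33.78 and 52.80 CPM, Gm43300 3.18, 0.523 and 2.81 CPM, and Cnot10 56.37, 41.55 and 53.25 CPM. The r exceeded 0.9 for 358 candidates, and all of them share the same 9 libraries and 3 genotypes.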

How the data were processed

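Bulk RNA-seq of mouse brain without cerebellum was analysed from 9 libraries. The values were raw counts per gene, as deposited by the authors in 1 table with symbols, coordinates and exon lengths; per the submitters' processing notes the build was GRCm39. Not given in the sources used here are the aligner, the counting tool, its strand setting and the treatment of reads with several matches. Genotypes came from the labels, which name each library as a separate mouse.

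Genes were kept by filterByExpr (minimum count 10, minimum total 15). Counts were scaled by TMM, and all 9 libraries were fitted at once by edgeR's quasi-likelihood test (edgeR 4.0.16, limma 3.58.1, R 4.3.3). The threshold was an adjusted p of 0.05 (Benjamini-Hochberg, over all 17575 genes tested). The filter took away no more than 0.161% of the counts of any library. CPM used the scaled library sizes. The SE is the absolute log2 fold change divided by the square root of F, and intervals are 95%. Alternatives were RLE and upper-quartile scaling, no filter, DESeq2 1.42.0, limma-voom, only the 6 libraries compared, a replicate block, offsets for gene length or span, and leaving out libraries.

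All 10 genes are named. Of each related list up to 4 genes with the smallest p are named, with defining genes beside them. Likeness was ranked over genes with a mean of at least 1 CPM (log2 with a prior count of 2). The 10 genes and the 19 related lists were chosen with earlier results of these data known. Comparisons over lists have no test of their own.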

Additional observations from a re-analysis of the deposited data

How the results depend on the processing

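Of 570 repeats of the 30 tests (10 genes, 3 comparisons, 19 alternatives), 532 kept their direction and side of the threshold, 19 lost a call, 10 gained one and 9 turned sign, none of these past the threshold. Slco1a4 and Abcb1a kept their calls in all 19 alternatives in 5xFAD against wild-type (log2 fold changes of -1.35 to -0.997 and -0.90 to -0.81), and their calls were also kept in 5xFAD/Cd5l tg/wt against 5xFAD (1.10 to 1.46 and 0.85 to 0.94), and Flt1 kept its call in the second (0.52 to 0.80). Without a filter on low counts, 5 genes fell in 5xFAD against wild-type in place of 3 (with Slco1c1 and Kdr), 7 rose (with Slco1c1) and 1 (Mfsd2a) fell in 5xFAD/Cd5l tg/wt against 5xFAD, and 1 (Cldn5) rose in 5xFAD/Cd5l tg/wt against wild-type in place of 0. Leaving out 1 library at a time gave 3 to 7 genes past the threshold in 5xFAD/Cd5l tg/wt against 5xFAD in place of 6, 2 to 4 in 5xFAD against wild-type, and 0 when 5xFAD/Cd5l tg/wt were compared with wild-type mice. Without the divergent libraries, the counts were 4, 4 and 0, and values turned sign for Slco1a4 (-0.087), Slc2a1 (0.17), Flt1 (-0.024) and Kdr (-0.23) in 5xFAD/Cd5l tg/wt against wild-type and for Slco1c1 (-0.21) in 5xFAD/Cd5l tg/wt against 5xFAD; the cause was not tested. Leaving out 1 library gave -0.12 to 0.17 for Slc2a1 in 5xFAD/Cd5l tg/wt against 5xFAD and -0.15 to 0.19 for Slco1c1 in 5xFAD/Cd5l tg/wt against wild-type. Over all tested genes, 206 to 1354 passed in 5xFAD against wild-type (615 in the fit reported), 278 to 2069 in 5xFAD/Cd5l tg/wt against 5xFAD (1095) and 158 to 1062 in 5xFAD/Cd5l tg/wt against wild-type (277). With the replicate number as a block, 3, 6 and 0 of the 10 genes passed, as in the fit without it. Same-numbered libraries did not deviate together (r of -0.1 to 0.154), so the numbers were not taken as pairs. RLE and upper-quartile scaling moved the median of all genes by at most 0.0138 on the log2 scale. With 3 libraries per genotype, SEs on the log2 scale ran from 0.08 (Abcb1a) to 0.22 (Mfsd2a), which limits the changes that could be detected.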

Other observations

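Beside the endothelial genes stand the markers of pericytes and smooth muscle. Their summed level was 253 to 278 CPM in 5xFAD/Cd5l tg/wt, 186 to 205 CPM in 5xFAD and 227 to 258 CPM in wild-type libraries. Of 14 mural genes 1, the pericyte gene Rgs5, fell in 5xFAD against wild-type (-0.52 ± 0.07, edgeR adjusted p = 0.00168). Rgs5 (0.66 ± 0.07), the smooth muscle myosin gene Myh11 (1.04 ± 0.24) and the receptor gene Notch3 (0.61 ± 0.15) rose with the transgene, 5xFAD/Cd5l tg/wt against 5xFAD (edgeR adjusted p = 0.000378, 0.0253 and 0.0326). Without the divergent libraries 4 fell and 4 rose. The 1 that fell became 2 without wild-type library 3 or library 1 or 3 of 5xFAD/Cd5l tg/wt mice, and the 3 that rose became 1 without any 1 of the 5xFAD libraries or without 5xFAD/Cd5l tg/wt library 2.

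Markers of vessel segments were described without a test between segments. Summed levels overlapped between 5xFAD and wild-type libraries for capillary (1258 to 1366 and 1343 to 1504 CPM) and arterial markers (465 to 492 and 467 to 480 CPM). They were higher in 5xFAD than in wild-type libraries for venous (352 to 376 and 321 to 323 CPM) and fenestrated or leaky endothelium markers (50.5 to 57.1 and 44.5 to 48.1 CPM). Of 9 capillary markers other than Mfsd2a and Slc7a5, 3 fell in 5xFAD against wild-type (Rgs5, the chemokine gene Cxcl12 and Itm2a). With the transgene 4 were called higher (these 3 and Tfrc). Rgs5 is the pericyte gene already counted among the mural genes, and Tfrc was already counted among the further transporters. The 4 became 2 without 5xFAD library 1 or 2 and without the divergent libraries. Of 12 arterial markers 1 fell in 5xFAD against wild-type (Gkn3, -1.45 ± 0.31, edgeR adjusted p = 0.0237), and none passed in 5xFAD/Cd5l tg/wt against 5xFAD in edgeR's test. Of 10 venous markers 1 rose in 5xFAD against wild-type (Ctsc, 0.92 ± 0.18, edgeR adjusted p = 0.0144), a cathepsin gene that microglia also express, and the medians of the venous list were 0.10 and 0.15. The arterial call was lost without wild-type library 2 or any 1 of the 5xFAD libraries. The venous call was lost without wild-type library 1 or 2 or 5xFAD library 1 or 2, and without the divergent libraries 3 venous genes rose and 1 fell. Fenestrated or leaky endothelium markers did not pass in either comparison in edgeR's test (5 tested genes, medians of -0.04 and -0.13).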
